A study of Mus musculus with 6 samples.

Results

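The genes described here are 9, namely 4 named as immediate early response genes (Ier2, Ier3, Ier5 and Ier5l) and 5 genes of the antiproliferative Btg/Tob family (Btg1, Btg2, Btg3, Tob1 and Tob2). They were taken from a count table of 38293 rows as the rows whose gene symbol equals one of these names. Each symbol matched 1 row, and all 9 passed the filter on low counts that left 14642 genes for testing. RNA was sequenced from primary mouse cortical neurons, labelled wild type, that were prepared from Swiss-Webster embryos at embryonic day 16 and kept to day 13 in vitro. The NMDA group (3 libraries) received 50 µM NMDA, an agonist of one class of glutamate receptor, for 10 minutes and then recovered in medium without the drug for 50 minutes, while the control group (3 libraries) had no treatment. The labels do not give a vehicle or wash for the controls, and the protocol text speaks of 2 biological replicates where 3 libraries are listed per group. P-values therefore measure the spread between these libraries, part of which may be technical.

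Immediate early genes are transcribed within minutes of a stimulus without the need for new protein synthesis, and in neurons calcium entry through NMDA receptors is one such stimulus. Ier2, Ier5 and Ier5l encode related nuclear proteins that share an N-terminal domain, whereas Ier3 encodes an unrelated stress-inducible regulator of cell survival. Proteins of the Btg/Tob family share a domain that binds the CAF1 deadenylases of the CCR4-NOT complex, which shortens the poly(A) tails of mRNAs, and they are known for restraining cell proliferation. Btg2 is also a target of p53 and is induced by growth factors and depolarisation in neuronal cell lines.

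The RefSeq promoter table (GRCm38.p6), which covers 250 bases before to 50 bases after a start site, held windows for 8 of the 9 members and none for Ier2. The windows of Btg2, Btg1 and Tob1 are shown because they are the 3 that hold letters of the cAMP response element (CRE), the site known to bind CREB. Capitals mark the full element TGACGTCA, its half-site TGACG (read as CGTCA on the other strand) and TATAAA, a form of the TATA box. The Btg2 window lies on the minus strand at chr1:134079106-134079405, the Btg1 window on the plus strand at chr10:96616751-96617050 and the Tob1 window on the plus strand at chr11:94211204-94211503.
Btg2: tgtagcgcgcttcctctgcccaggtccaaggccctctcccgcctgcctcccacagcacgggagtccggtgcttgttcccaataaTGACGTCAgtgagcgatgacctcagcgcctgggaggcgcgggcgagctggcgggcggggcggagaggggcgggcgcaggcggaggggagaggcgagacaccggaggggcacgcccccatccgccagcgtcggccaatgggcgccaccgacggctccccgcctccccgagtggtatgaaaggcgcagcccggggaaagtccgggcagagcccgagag
Btg1: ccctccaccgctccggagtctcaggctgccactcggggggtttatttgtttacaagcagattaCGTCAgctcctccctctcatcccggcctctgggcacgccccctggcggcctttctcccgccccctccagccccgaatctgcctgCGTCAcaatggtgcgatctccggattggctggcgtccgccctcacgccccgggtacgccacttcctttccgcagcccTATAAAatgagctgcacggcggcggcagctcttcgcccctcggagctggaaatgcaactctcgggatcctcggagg
Tob1: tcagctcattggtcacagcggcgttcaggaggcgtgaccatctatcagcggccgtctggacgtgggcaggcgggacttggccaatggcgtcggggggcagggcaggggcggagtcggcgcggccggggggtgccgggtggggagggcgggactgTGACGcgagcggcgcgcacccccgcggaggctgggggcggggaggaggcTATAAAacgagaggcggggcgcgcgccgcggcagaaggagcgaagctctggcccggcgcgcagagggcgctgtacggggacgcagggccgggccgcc
The full element stood in 1 of the 8 genes, Btg2, from base -166 to base -159 relative to its start site, and in 1.79% of all 32851 windows of 300 bases in the table, both strands searched. The half-site, which the full element also contains, stood in 3 of the 8 genes and in 20.8% of all windows. Btg1 held it at bases -187 to -183 and again at -103 to -99, and Tob1 held it at -96 to -92. TATAAA stood in Btg1 and Tob1 and in 13.6% of all windows. Only these exact letters were searched, so variants of the TATA box, such as TATATAAG in the Ier5 window, were not counted. The CArG box, the binding site of serum response factor, was found in none of the 8 genes and in 1.63% of all windows. CCAAT stood in 7 of the 8 genes (37.4% of all windows) and GGGCGG in all 8 (35.7%). A gene is counted if any of its windows matches, whereas the percentages count windows. Btg3 has a pair of windows, and only window 2 holds GGGCGG. A match describes the letters in these windows and is no evidence of binding.

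**Figure D1:**
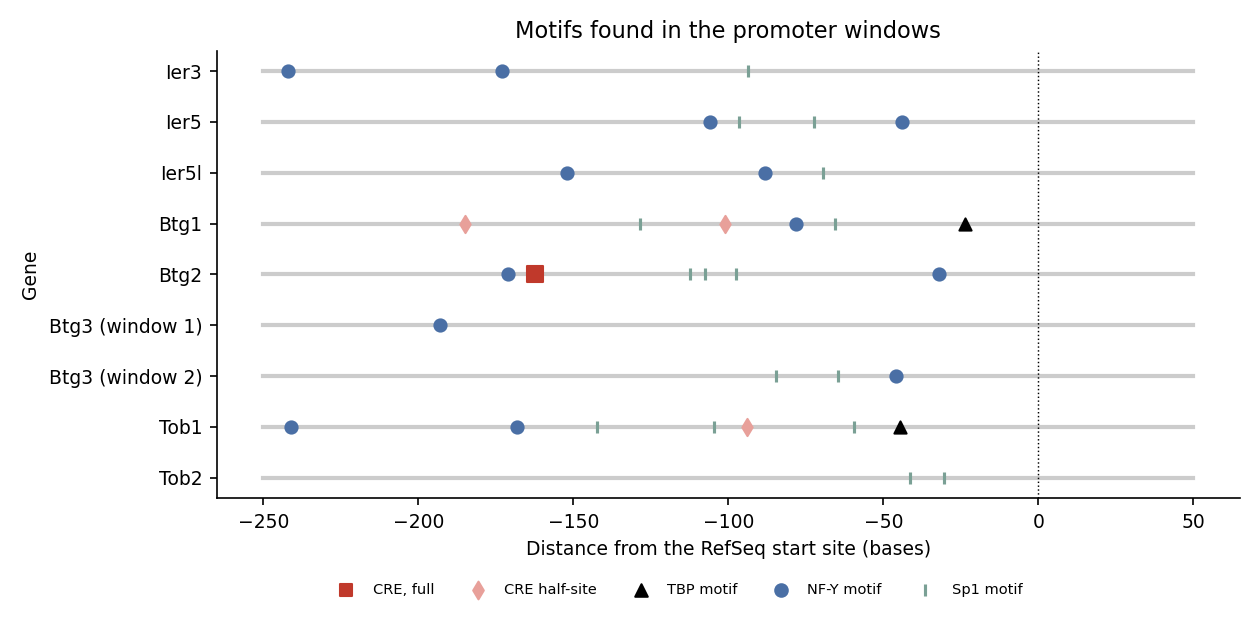
Positions of motif matches in the promoter windows of 8 members (Btg3 has a pair of windows), with distance from the RefSeq start site in bases on the x axis and the genes down the page. NF-Y marks CCAAT, Sp1 marks GGGCGG and TBP marks TATAAA; the square at -166 to -159 in Btg2 is the full cAMP response element, whose 2 half-sites are not drawn separately.

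Library totals ran from 15417234 to 18606264 counted reads in NMDA libraries and from 17860691 to 19183999 in control libraries, and levels are given as CPM, a count scaled to library size and TMM factor. Markers of neurons were abundant, with the summed level of Rbfox3, Map2, Tubb3, Snap25 and Syt1 at 4140 to 4780 CPM in NMDA and 4350 to 4860 CPM in control libraries. The cultures also held glial RNA, with 7 astrocyte markers summing to 1640 to 2690 CPM in NMDA and 1510 to 2100 CPM in control libraries, and 7 oligodendrocyte lineage markers to 645 to 1000 CPM in NMDA and 527 to 1020 CPM in control libraries. The 5 markers of cycling progenitors summed to 544 to 799 CPM in NMDA and 511 to 680 CPM in control libraries. Among them Mki67 averaged 124 CPM in NMDA and 121 CPM in control libraries, and Top2a 124 and 119 CPM. Microglial markers were low. The 2 tested of 5, Aif1 and P2ry12, summed to 2.35 to 3.03 CPM in NMDA and 2.16 to 3 CPM in control libraries, most of it Aif1. The 3 tested of 5 endothelial and mural markers summed to 70.1 to 133 CPM in NMDA and 54.3 to 72.8 CPM in control libraries. Of the 5, Cldn5, a defining endothelial marker, had no count in any library, and Cdh5 did not pass the filter. Acta2, a mural marker, made up most of that sum, at 58.1 to 117 CPM in NMDA and 43.6 to 59.8 CPM in control libraries. It was highest in NMDA replicate 2. Within pairs Acta2 was higher (0.56, adjusted p = 0.0092), while Pdgfrb (0.23, adjusted p = 0.19) and Pecam1 (-0.23, adjusted p = 0.66) did not pass. Without the pairing 0 of 38 tested markers passed in edgeR (6 at an unadjusted p under 0.05; DESeq2 called 1 and limma-voom 0), and within pairs of the same replicate number 13 did, beside 14.0% of all genes called in either direction; 6 of the 13 were astrocyte markers, all higher. The others called higher were the neuronal markers Rbfox3, Tubb3 and Neurod2, the progenitor markers Nes and Sox2, and Acta2, while Mog was called lower. Which cells hold the transcripts described below was not measured, and in bulk RNA fewer cells of a type and less RNA per cell cannot be told apart.

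Ier2 and Btg2 rose after NMDA, and no member fell. These 2 of 9 members passed edgeR's quasi-likelihood test at an adjusted p under 0.05, against 0.376% of all 14642 genes called higher. Within pairs of the same replicate number, Ier5l, Tob1 and Tob2 passed as well, giving 5 of 9 higher, against 5.65% of all genes called higher in that fit. None was called lower in either fit, against 0.0546% of all genes without the pairing and 8.35% within pairs; in edgeR 0 members had an unadjusted p under 0.05 in that direction, and DESeq2 and limma-voom also called 0. The fitted log2 change was above 0 for all 9, as it was for 49.1% of all tested genes, but that of Ier3 turned to -0.10 without control replicate 1. The median log2 change of the members was 0.34, beside -0.0054 for all tested genes. NMDA exceeded control in all 3 replicate numbers for 8 members (22.5% of all genes), the exception being Btg3, and lay below it in all 3 for 0 members (25.7% of all genes).

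**Figure D2:**
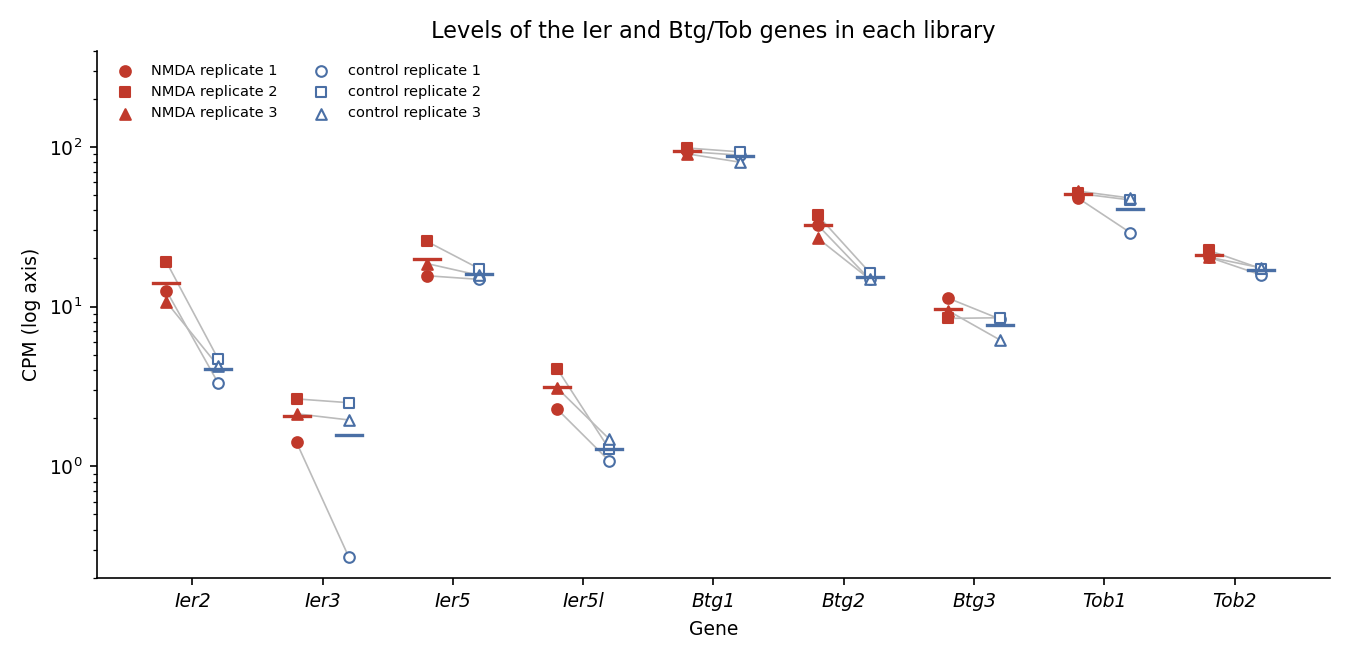
CPM on a log axis for each of the 9 genes in the 6 libraries, with NMDA as filled and control as open symbols, horizontal bars for group means (n = 3 each) and grey lines joining libraries of the same replicate number. The NMDA and control symbols do not overlap for Ier2, Ier5l, Btg2 and Tob2.

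Among the Ier genes, Ier2 showed the largest fitted change of the 9. Ier2 (ENSMUSG00000053560), a gene with a single exon on chromosome 8 from 84661331 to 84662852 (GRCm38), encodes a nuclear protein induced by growth factors. It stood at 12.6, 19.1 and 10.7 CPM in NMDA replicates 1, 2 and 3, against 3.30, 4.67 and 4.22 CPM in control replicates 1, 2 and 3. Every NMDA library lay above every control library, and NMDA replicate 2 was highest. The rise was 3.47-fold (95% interval 2.40 to 5.02; log2 1.80 ± 0.24 (SE), edgeR adjusted p = 0.0092). The call was lost without control replicate 1, 2 or 3 taken in turn (adjusted p = 0.056, 0.055 and 0.066), although the log2 change stayed at 1.67, 1.91 and 1.83. Within pairs Ier2 passed (log2 1.77 ± 0.15, edgeR adjusted p = 9.5e-08). Junb, the AP-1 gene that lies 312 kb from Ier2 on the same chromosome, averaged 39.6 ± 8.41 CPM in NMDA and 4.18 ± 1.08 CPM in control libraries (SD, n = 3 each; log2 3.24 ± 0.21).

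Ier5l (ENSMUSG00000089762) is the less studied relative of Ier5, also a single exon, on chromosome 2 from 30471537 to 30474219. It was the least abundant member per length. Its levels were 2.28, 4.08 and 3.09 CPM in NMDA replicates 1, 2 and 3, against 1.08, 1.28 and 1.48 CPM in control replicates 1, 2 and 3, resting on 34 to 74 reads per NMDA library and 20 to 28 per control library. The groups did not overlap, as for 4 of the 9 members with NMDA above control (8.18% of all genes). The fitted change of 2.46-fold (95% interval 1.57 to 3.87; log2 1.30 ± 0.29) did not pass without the pairing (adjusted p = 0.12) and passed within pairs (1.28 ± 0.24, adjusted p = 0.0013), where it held with each replicate number left out. DESeq2 called it with and without the pairing (adjusted p = 0.017 and 0.024), as did edgeR without a low-count filter (0.021) or without NMDA replicate 1 (0.047).

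Ier5 (ENSMUSG00000056708, chromosome 1 from 155096361 to 155099636) encodes a protein that in human cells binds the B55 subunits of phosphatase PP2A and the heat shock factor HSF1. It stood at 15.6, 25.6 and 18.6 CPM in NMDA replicates 1, 2 and 3, against 14.8, 17.3 and 15.7 CPM in control replicates 1, 2 and 3. Only NMDA replicate 1 lay within the range of the controls. The log2 change of 0.32 ± 0.17 did not pass (adjusted p = 0.45; 95% interval of the fold 0.954 to 1.64), nor did it within pairs (0.30 ± 0.11, adjusted p = 0.066), although it passed there without replicate 1 (0.42, adjusted p = 0.0082).

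Ier3 (ENSMUSG00000003541, chromosome 17 from 35821684 to 35822923) had 21, 48 and 40 reads in NMDA replicates 1, 2 and 3 and 5, 45 and 37 reads in control replicates 1, 2 and 3, or 1.41, 2.64 and 2.13 CPM in the NMDA libraries against 0.271, 2.50 and 1.95 CPM in the controls. Control replicate 1 stood far below the other 5 libraries, and the groups overlapped. The log2 change was 0.40 ± 0.58 (adjusted p = 0.80) and -0.10 ± 0.33 without that library. The interval of the fold, 0.527 to 3.29, leaves a change as large as that of Btg2 within its bounds.

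Of the Btg genes, Btg2 rose while its closest relative Btg1 did not pass. Btg2 (ENSMUSG00000020423), with 2 exons on chromosome 1 from 134075170 to 134079120, stood at 32.4, 37.3 and 26.8 CPM in NMDA replicates 1, 2 and 3, against 14.8, 16.3 and 14.8 CPM in control replicates 1, 2 and 3. The control libraries lay within a narrow range, and the lowest NMDA library exceeded the highest of them by more than their whole spread. The rise was 2.10-fold (95% interval 1.70 to 2.59; log2 1.07 ± 0.14, adjusted p = 0.0067), with log2 changes of 1.12, 1.19 and 0.86 in replicate numbers 1, 2 and 3. The call was lost without control replicate 2 (1.12 ± 0.16, adjusted p = 0.051). Within pairs Btg2 passed (log2 1.06 ± 0.10, edgeR adjusted p = 2.8e-07).

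Btg1 (ENSMUSG00000036478, chromosome 10 from 96617006 to 96622809), which like Btg2 binds CAF1 deadenylases and is known for keeping lymphocytes quiescent, was the member with the highest CPM. It stood at 93.6, 98.4 and 90.4 CPM in NMDA replicates 1, 2 and 3, against 88.7, 93.1 and 80.3 CPM in control replicates 1, 2 and 3. The groups overlapped. Its log2 change was 0.11 ± 0.09 (adjusted p = 0.61, and 0.32 within pairs), and the 95% interval of the fold, 0.943 to 1.23, lay below that of Btg2.

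Btg3 (ENSMUSG00000022863, chromosome 16 from 78332637 to 78377192) was at 11.3, 8.43 and 9.43 CPM in NMDA replicates 1, 2 and 3, against 8.34, 8.51 and 6.17 CPM in control replicates 1, 2 and 3. The groups overlapped, with NMDA replicate 2 just below control replicate 2. The log2 change was 0.34 ± 0.18 (adjusted p = 0.44, and 0.11 within pairs), and within pairs it passed without replicate 2 (0.52, adjusted p = 0.045). Its exons share 695 bases with those of Cxadr on the opposite strand, and whether the counting used strand is not known here.

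The Tob genes, whose longer proteins also bind the poly(A)-binding protein, passed within pairs and not without the pairing. Tob1 (ENSMUSG00000037573, chromosome 11 from 94211454 to 94215495) stood at 47.7, 51.1 and 52.8 CPM in NMDA replicates 1, 2 and 3, against 29.0, 46.5 and 47.8 CPM in control replicates 1, 2 and 3. Control replicate 1 was the low library, and control replicate 3 just exceeded NMDA replicate 1. The log2 change was 0.30 ± 0.17 (adjusted p = 0.47) without the pairing and 0.32 ± 0.10 within pairs (adjusted p = 0.048). That call was lost without replicate 1, where the change was 0.15 (adjusted p = 0.21), and in DESeq2 with the same pairing (adjusted p = 0.10). Without control replicate 1 and without the pairing the log2 change was 0.10.

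Tob2 (ENSMUSG00000048546, chromosome 15 from 81848272 to 81858796) moved more evenly. It stood at 20.4, 22.5 and 20.4 CPM in NMDA replicates 1, 2 and 3, against 15.8, 17.3 and 17.5 CPM in control replicates 1, 2 and 3, with no overlap between the groups. The log2 change was 0.32 ± 0.11 (unadjusted p = 0.015 in edgeR, adjusted p = 0.25) and 0.32 ± 0.10 within pairs (adjusted p = 0.030), with 0.37, 0.38 and 0.22 in replicate numbers 1, 2 and 3. The call within pairs was lost without replicate 2 (0.30, adjusted p = 0.21) and in DESeq2 with the pairing (adjusted p = 0.16). Its exons share 289 bases with an antisense gene, Gm49476. Astrocyte markers were higher in the same paired fit, with a median log2 change of 0.32 and 6 of 7 passing. Of 5 markers of all neurons 2 passed as higher too, Rbfox3 (0.40) and Tubb3 (0.30), with a median of 0.04 for the 5. Of 5 excitatory neuron markers 1 did, Neurod2 (0.27). The part of any cell type in the small changes of Tob1 and Tob2 was not tested.

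**Figure D3:**
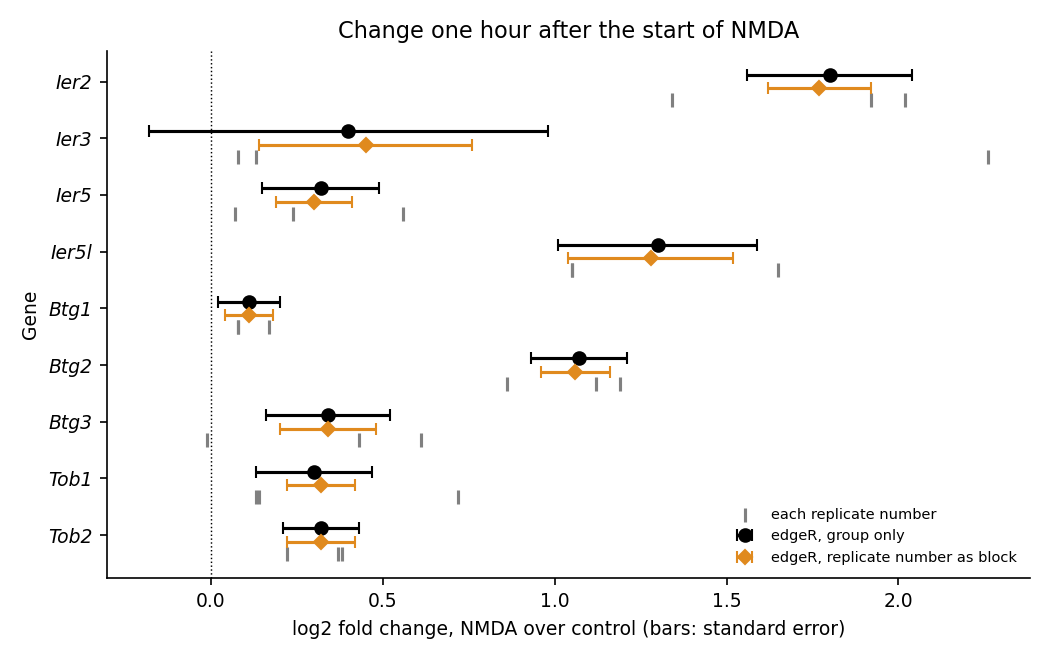
Log2 fold change of NMDA over control for the 9 genes from edgeR without (circles) and with the replicate number as a block (diamonds), with standard errors as bars; the ticks under each gene are the differences in each of the 3 replicate numbers. Ier2, Ier5l and Btg2 lie above 1, the other 6 lie between 0 and 0.5, and Ier3 has 1 tick, replicate number 1, at 2.26.

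Per kilobase of exon, the order of the levels differed between the groups in 1 place, the ranks of Ier2 and Ier5. In NMDA libraries the means were 22.1 CPM per kb for Tob1, 17.8 for Btg1, 11.7 for Btg2, 9.28 for Ier2, 6.08 for Ier5, 3.17 for Tob2, 2.42 for Btg3, 1.82 for Ier3 and 1.17 for Ier5l. In control libraries they were 18.0 for Tob1, 16.6 for Btg1, 5.58 for Btg2, 4.87 for Ier5, 2.67 for Ier2, 2.53 for Tob2, 1.91 for Btg3, 1.39 for Ier3 and 0.477 for Ier5l. In NMDA libraries the ranges of the following neighbours overlapped over 3 libraries: Btg2 with Ier2, Ier2 with Ier5, Btg3 with Ier3, and Ier3 with Ier5l. In control libraries the overlapping neighbours were Tob1 with Btg1, Ier2 with Tob2, Btg3 with Ier3, and Ier3 with Ier5l.

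Btg2 made up a larger part of the family's RNA in NMDA libraries. Its share of the summed per-length level of the 5 Btg and Tob genes was 21.0%, 22.7% and 17.6% in NMDA replicates 1, 2 and 3, against 13.8%, 12.2% and 11.8% in control replicates 1, 2 and 3. The groups did not overlap, and the mean difference was 7.83 percentage points (two-sided exact permutation p = 0.1, the smallest that 3 against 3 libraries allow), a test that ignores the pairing. Within replicate numbers 1, 2 and 3 the difference was 7.23, 10.4 and 5.85 points. The share of Btg1 averaged 31.2% ± 0.319 in NMDA and 37.4% ± 4.81 in control libraries (SD, n = 3 each; exact permutation p = 0.1), with differences of -11.2, -5.19 and -2.41 points in replicate numbers 1, 2 and 3. That of Tob1 averaged 38.6% ± 2.62 in NMDA and 39.9% ± 6.96 in control libraries (SD, n = 3 each; exact permutation p = 0.9), with a difference of 4.84 points in replicate number 1 and of -4.65 and -4.11 points in numbers 2 and 3. Shares are parts of a whole, so a larger share of Btg2 leaves less for the others. The per-length level of Btg1 itself averaged 17.8 CPM per kb in NMDA and 16.6 CPM per kb in control libraries. The summed level of the family was 56.3, 60.1 and 55.4 CPM per kb in NMDA replicates 1, 2 and 3, against 39.3, 48.7 and 45.7 CPM per kb in control replicates 1, 2 and 3.

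**Figure D4:**
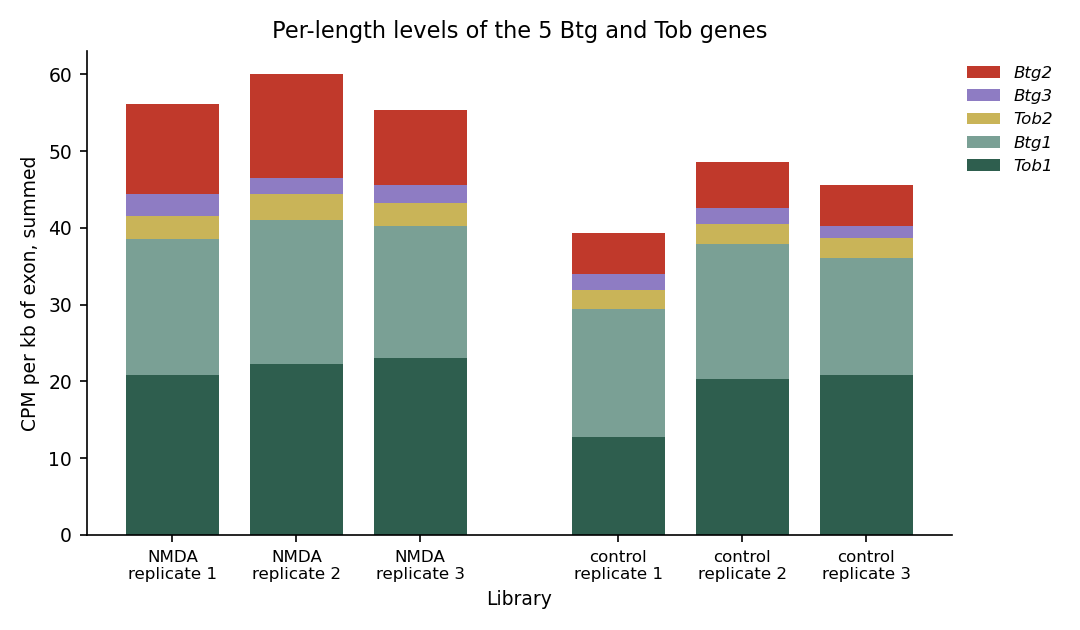
Stacked bars of CPM per kb of exon for the 5 Btg and Tob genes in each library, starting at 0, with the 3 NMDA libraries on the left and the 3 control libraries on the right. The Btg2 segment at the top is 9.77 to 13.6 CPM per kb in NMDA and 5.38 to 5.96 CPM per kb in control libraries, and the Tob1 segment at the bottom is lowest in control replicate 1.

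The genes whose pattern was most like that of Ier2 and of Btg2 were sought among 12763 genes (mean log2 CPM 1 or above), by the root mean square difference of log2 CPM over the 6 libraries after each gene was centred on its mean. For Ier2 the 5 nearest were Gadd45b (0.15), Dusp1 (0.18), Csrnp1 (0.25), Nr4a3 (0.26) and Dusp5 (0.26). For Btg2 they were Jun (0.06), Trib1 (0.10), Sik1 (0.11), Nfil3 (0.12) and Dusp6 (0.14). All 10 had passed the test as higher, with log2 changes of 1.58 to 1.83 for the neighbours of Ier2 and 1.02 to 1.22 for those of Btg2. The measure follows the size of the change, so genes of like change are near each other by construction. Between members, the pairs least far apart were Btg1 and Tob2 (0.14) and Ier5 and Tob2 (0.17), and Btg2 was nearer to Ier5l (0.28) than to any other member.

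**Figure D5:**
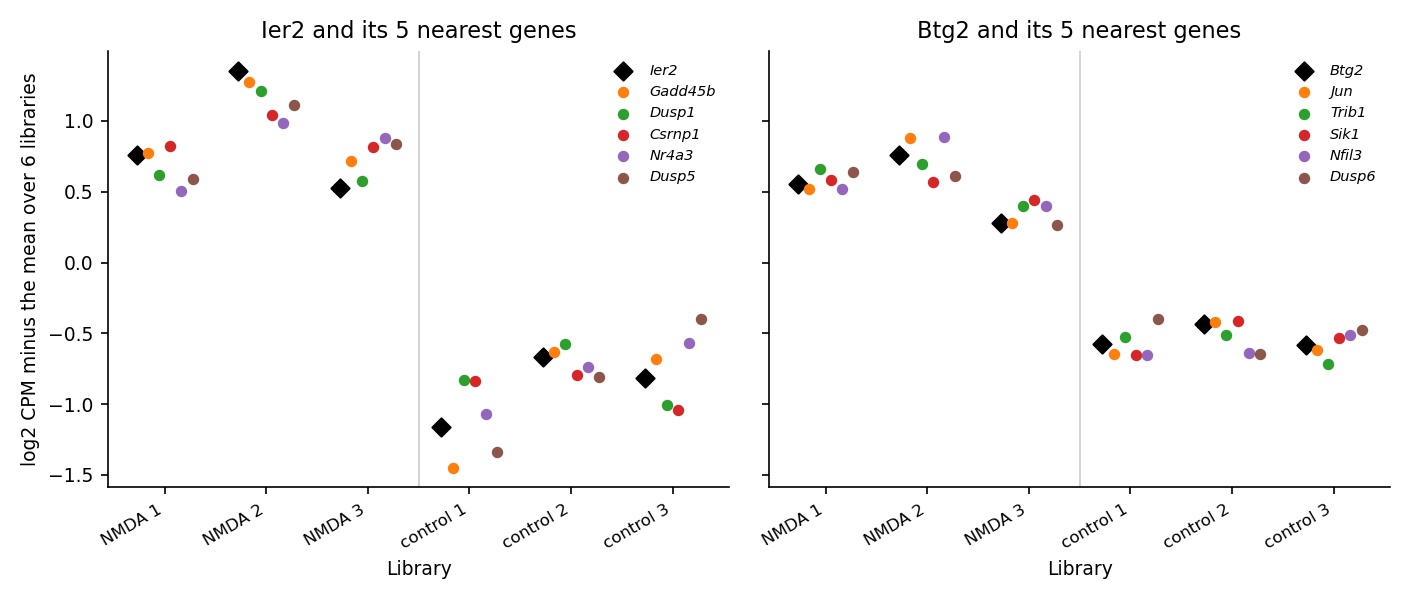
Log2 CPM minus each gene's mean over the 6 libraries for Ier2 (left) and Btg2 (right) as black diamonds, each with its 5 nearest genes as coloured circles; the 3 NMDA libraries stand left of the grey line and the 3 control libraries right of it. NMDA replicate 2 is the highest library for Ier2 and for Btg2, and the Btg2 neighbours lie closer to it than the Ier2 neighbours lie to Ier2.

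Transcripts of CCR4-NOT, which Btg and Tob proteins bind, and of other poly(A) tail proteins were called at a share near that of all genes. Of 23 genes for CCR4-NOT subunits, other deadenylases, poly(A)-binding proteins and their partners, and CPEB proteins, 0 passed in edgeR without the pairing (3 at an unadjusted p under 0.05; DESeq2 and limma-voom called 0), against 0.430% of all genes called in either direction, and their median log2 change was 0.01. Within pairs 1 rose and 2 fell, beside 14.0% of all genes called in either direction. Cnot10, a subunit of the complex, fell to 44.6, 38.2 and 32.5 CPM in NMDA replicates 1, 2 and 3, against 58.5, 48.2 and 41.6 CPM in control replicates 1, 2 and 3. The groups overlapped, while each NMDA library lay below its own control (log2 -0.36 ± 0.08 within pairs, adjusted p = 0.0032), and the call held with each replicate number left out. Pan2, the catalytic subunit of another deadenylase, fell within pairs (-0.32 ± 0.09, adjusted p = 0.017), a call lost without replicate 2 or 3. Cpeb3, of the CPEB proteins, rose within pairs (0.30 ± 0.08, adjusted p = 0.024), a call lost without replicate 2. The CAF1 deadenylases themselves, Cnot7 (-0.11 ± 0.08) and Cnot8 (0.04 ± 0.09), did not pass in either fit, and neither did Cnot6l, a CCR4-type deadenylase (-0.20 ± 0.09, adjusted p = 0.34), which was called within pairs when replicate 1 was left out, as were Cnot1 and Cpeb1.

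Of 10 listed genes for binding partners of Ier5, Btg1 and Btg2, 9 were tested, namely Hsf1 and 8 PP2A subunits, all listed for Ier5. Prmt1, listed for Btg1 and Btg2, had no row under that symbol, so this list tested no partner of Btg1 or Btg2. Of the 9, 0 passed in edgeR without the pairing (3 at an unadjusted p under 0.05), and DESeq2 and limma-voom called 0. These counts stand beside 0.430% of all genes called in either direction without the pairing and 14.0% within pairs, where 2 of the 9 rose and 1 fell. Hsf1, the main heat shock transcription factor, fell to 11.5, 11.3 and 10.8 CPM in NMDA replicates 1, 2 and 3, against 16.7, 16.5 and 14.8 CPM in control replicates 1, 2 and 3. The groups did not overlap (log2 -0.51 ± 0.12, adjusted p = 0.14; within pairs -0.51 ± 0.11, adjusted p = 0.0030), and the call within pairs held with each replicate number left out. Ppp2cb, a catalytic subunit of PP2A, rose within pairs (0.28 ± 0.07, adjusted p = 0.011), as did its scaffold Ppp2r1a (0.28 ± 0.08, adjusted p = 0.020), and both calls were lost without replicate 2. None of the 4 B55 subunits passed in either fit, with log2 changes from -0.04 for Ppp2r2c to 0.19 for Ppp2r2a, which was called within pairs when replicate 3 was left out; 0 of them had an unadjusted p under 0.05 in edgeR without the pairing, and DESeq2 and limma-voom called 0.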

How the data were processed

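The authors deposited raw read counts per gene. Per the submitters' processing notes, the tools were Trimmomatic, TopHat and HTSeq, with mm10 and GRCm38.p6 as builds; versions, annotation and use of strand were not given in the sources used here. Gene positions and exonic lengths came from GENCODE M21 (GRCm38) and promoter windows from RefSeq (GRCm38.p6).

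Computed here from the deposited counts: edgeR 4.0.16 in R 4.3.3 on the whole table, with a low-count filter (minimum count 10, minimum total 15), TMM scaling, robust quasi-likelihood fits of group alone, and Benjamini-Hochberg adjusted p over 14642 genes with a threshold of 0.05. SE is the log2 change divided by the root of F. Alternatives used DESeq2 1.42.0 and limma 3.58.1. Rows without a symbol (0.219% to 0.246% of counts) carry identifiers and stayed in.

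Each library was set against its group mean; for equal replicate numbers these deviations had correlations of 0.52, 0.37 and 0.47. Since each exceeds 0.1, the numbers are treated as pairs, a pairing seen in the data and not stated by the labels. The paired fit (replicate block) has 2 residual degrees of freedom and the unpaired fit has 4. Paired values are printed for members and listed partners whose call they change, and for some other genes. No library was a copy of another: chi-square values within groups were 8.18 to 59.0 per degree of freedom. Members, lists and the naming rule (all members; from each partner list the 3 smallest p and any called gene; the 5 genes nearest to Ier2 and to Btg2) were chosen with earlier results of these data known. Scripts were tested on simulated data.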

Additional observations from a re-analysis of the deposited data

How the results depend on the processing

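Calls depended mainly on the pairing and on single control libraries. Members called higher numbered 2 without the pairing, 5 with the replicate block, and 5 with the block whichever replicate number was left out. Ier2, Ier5l and Btg2 were among the 5 each time, and the others were not the same genes each time. Leaving out single libraries without the block gave 0 to 3. The lists of CCR4-NOT and poly(A) tail genes and of Ier partners had 0 calls without the pairing, also with each library left out, and 3 calls each with the replicate block; with a replicate number left out under the block they had 1 to 6 and 1 to 4. DESeq2 with the block, chosen after seeing the data, gave 3 members, 1 and 3. Other scalings, limma-voom and a filter of at least 1 CPM kept 2 members higher, DESeq2 and edgeR without a filter gave 3, and 0 were called lower under any alternative run. Of the members' log2 changes under the alternatives, 132 kept direction and side of the threshold, 16 passed newly, 4 lost their call and 1 turned, that of Ier3 to -0.10 without control replicate 1 (up to 0.89 without other libraries); the value of that library, 0.271 CPM, was the lowest of the 6. Scaling moved the median of all genes by about 0.01 (log2). The difference in the Btg2 share was 6.33 points without division by length and 6.72 to 9.23 points with single libraries left out. Without division by length the Btg1 share was 45.2% to 45.6% in NMDA and 48.2% to 56.6% in control libraries. The fewest reads were those of Ier3, 5 to 48 per library, and Ier5l, 20 to 74; what their depth limits was not tested.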
